A study of Mus musculus with 288 samples.

Results

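The Scgb3a1-high airway secretory cells were sorted mouse lung cells in which Scgb3a1, a secretoglobin of the airway surface, took at least 1% of a well's counts while Sftpc, the surfactant gene typical of alveolar type 2 cells, took under 1%. They numbered 74 of the 227 wells that passed the limit on total counts, out of 286 wells that received a sorted cell. That was 32.6% of the kept wells, with an exact 95% interval from 26.5% to 39.1%. The wells were chosen by the measured levels of these 2 genes, so those levels describe the choice and are not a finding.

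All cells came from C57BL/6 mice of 4 months carrying Scgb1a1-CreER, an inducible Cre recombinase driven from the club cell secretoglobin locus, and the Rosa26-mTmG reporter, whose membrane fluorescence changes colour after recombination. The sort kept Epcam-positive epithelium without CD45 or CD31 whose CD24 was low, from the Scgb1a1 lineage, so every group below shares this genotype and gate. Neither the induction of Cre nor the number of animals is given in the sources used here. The comparison groups were the 90 other kept wells low in both Scgb3a1 and Sftpc, called the other wells low in Sftpc, the 63 Sftpc wells at 1% or more, and these 153 wells together. With no animal named, the wells were treated as 1 sample. Ratios therefore have no p-value, and intervals, all at 95%, cover counting error alone.

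Secretory cells of the conducting airway make the liquid and mucus that line it. Club cells release secretoglobins and carry detoxifying enzymes, and goblet cells release gel-forming mucins. Cells of the upper airway and its glands also release BPI fold proteins, which act on bacteria and surface tension, and lectins and iron-binding proteins that limit bacterial growth. SCGB3A1 is best known from the larger airways, where it is made alongside mucins and host defence proteins.

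The 5 promoters below are shown because their genes were abundant in the Scgb3a1-high wells. Each is the 250 bases before a RefSeq transcription start on GRCm38.p6, written 5′ to 3′ on the gene's strand. Scgb3a1 lies on the plus strand at chr11:49663345-49663594, Bpifa1 on the plus strand at chr2:154142630-154142879 and Reg3g on the minus strand at chr6:78468875-78469124. Bpifb1 has 2 listed starts on the plus strand, with windows at chr2:154190568-154190817 and chr2:154200130-154200379. Capitals mark 4 short motifs on either strand. One is TATAAA, which resembles the TATA box. Forkhead factors bind sites that resemble TATTTAC or, as the other form searched, TGTTTAC. A site bound by NKX2-1 resembles the last motif, CTCAAG.
Scgb3a1: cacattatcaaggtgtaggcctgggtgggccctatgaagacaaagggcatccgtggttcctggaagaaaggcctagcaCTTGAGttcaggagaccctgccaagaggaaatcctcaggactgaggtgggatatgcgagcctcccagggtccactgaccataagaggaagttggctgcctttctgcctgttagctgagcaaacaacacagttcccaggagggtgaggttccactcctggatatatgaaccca
Bpifa1: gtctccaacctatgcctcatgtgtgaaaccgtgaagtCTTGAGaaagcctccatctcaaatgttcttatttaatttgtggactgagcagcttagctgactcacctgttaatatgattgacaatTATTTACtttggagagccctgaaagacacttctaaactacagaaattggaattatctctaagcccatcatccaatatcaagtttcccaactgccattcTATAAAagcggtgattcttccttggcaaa
Bpifb1, first start: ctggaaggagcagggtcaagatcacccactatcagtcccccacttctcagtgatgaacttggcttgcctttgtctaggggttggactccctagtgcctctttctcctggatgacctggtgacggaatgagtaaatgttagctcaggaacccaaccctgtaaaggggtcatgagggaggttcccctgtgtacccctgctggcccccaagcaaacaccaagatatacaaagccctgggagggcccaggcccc
Bpifb1, second start: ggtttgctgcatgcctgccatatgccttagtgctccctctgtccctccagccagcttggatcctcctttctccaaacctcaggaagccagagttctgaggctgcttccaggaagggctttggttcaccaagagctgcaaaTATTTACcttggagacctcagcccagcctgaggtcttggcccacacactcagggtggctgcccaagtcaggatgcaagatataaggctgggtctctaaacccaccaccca
Reg3g: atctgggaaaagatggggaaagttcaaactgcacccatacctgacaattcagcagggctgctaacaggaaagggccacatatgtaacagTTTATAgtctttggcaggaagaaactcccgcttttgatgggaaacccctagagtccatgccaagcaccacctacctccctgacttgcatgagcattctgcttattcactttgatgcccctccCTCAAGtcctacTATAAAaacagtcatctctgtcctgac
TATTTAC stood 127 bases before the start of Bpifa1 and 110 bases before the second start of Bpifb1, and 2.73% of all 32851 promoters of this length held it. TATAAA stood 29 bases before the start of Bpifa1 and 27 bases before that of Reg3g, which also held its reverse 161 bases before the start, against 12.4% of all promoters. CTCAAG or its reverse was present at Scgb3a1, Bpifa1 and Reg3g and in 13.3% of all promoters. TGTTTAC, held by 3.17% of all promoters, had no match in these 5 windows. The motifs do not overlap each other in the windows shown. A match describes the letters and shows no binding.

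The wells differed in depth and in where they fell in the numbering. Totals of the Scgb3a1-high wells ran from 3376 to 15088 counts with a median of 6940.5, against medians of 5406 in the other wells low in Sftpc and 3529 in the Sftpc wells. After thinning each well to 3151 counts, which left out 23 of the 227 wells and no Scgb3a1-high well, the median number of genes was 1038.5, 1012 and 1176.5 in the same order. The part of depth in the results below was not tested beyond the thinned values. In consecutive sets of 96 well numbers, Scgb3a1-high wells made up 38 of 82 kept wells in set 1, 31 of 81 in set 2 and 5 of 64 in set 3, and Sftpc wells made up 6, 17 and 40. The labels do not say what a set is, so for the genes described at most length values within sets 1 and 2 stand beside the pooled ones. A well can hold more than 1 cell, and no doublet caller was run. Sftpc, limited by the choice itself, had a count in 32 of the 74 wells, with at most 4 counts and 0.0834% of a well, which says nothing about wells of 2 cells.

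**Figure D1:**
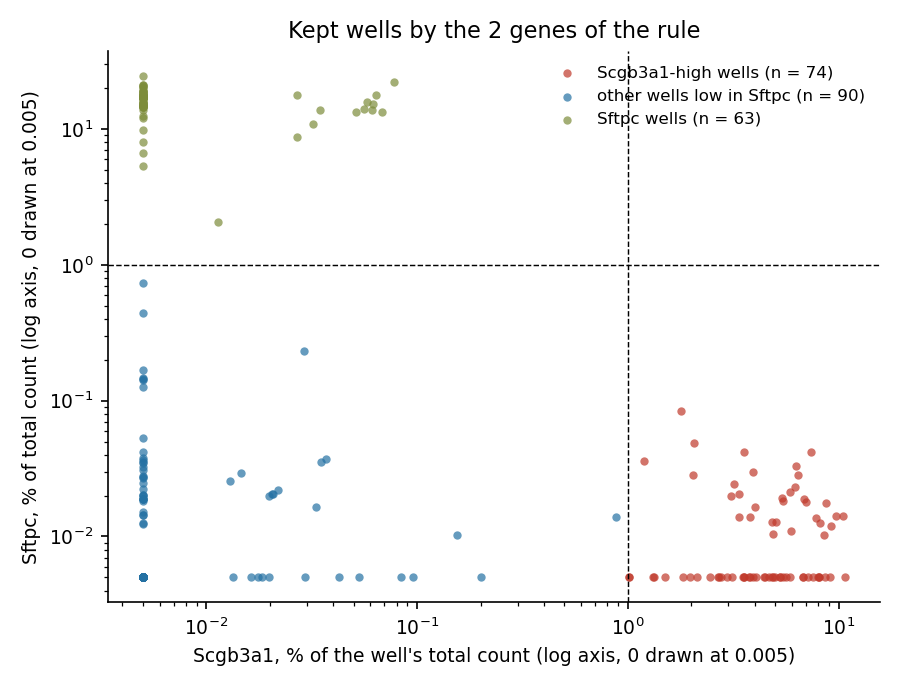
Each point is 1 kept well, with Scgb3a1 on the x axis and Sftpc on the y axis, both as a percentage of the well's total on log axes with wells at 0 drawn at the low end, and dashed lines mark the 1% limits. The 74 Scgb3a1-high wells sit at the lower right, the 63 Sftpc wells at the top, and 1 other well lies just outside the limit at 0.876% Scgb3a1.

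Scgb3a1 itself ran from 1.01% to 10.7% of a well, with a median of 4.84%. The members nearest the limit held 1.01%, 1.02%, 1.19% and 1.31%, and the nearest wells outside held 0.876%, 0.20%, 0.154% and 0.0961%. Only the first of these outside wells was close to the limit. It lay in set 1 with 7189 counts and held 63 counts of Scgb3a1, 16 of Bpifb1, 20 of Muc5b, 9 of Tff2 and 7 of Reg3g, so it resembled the members and gave much of the marker signal in the other wells low in Sftpc.

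The label was checked against the 5 markers that the choice did not use: Bpifa1, Bpifb1, Reg3g, Muc5b and Tff2. Of the 74 wells, 54 held a count of all 5 and 72 held a count of at least 3. Of the 90 other wells low in Sftpc, 66 held none of the 5 and 1 held all. Of the 63 Sftpc wells, 50 held none and no well held more than 2. At least 2-fold differences in pooled CPM (counts per 1000000 counts) were found for 8.12% of the 4534 genes tested as higher in the Scgb3a1-high wells than in the other wells low in Sftpc, and for 9.22% as lower. A gene was tested with at least 20 counts in both groups together. All 5 markers were higher, with a median log2 ratio of 7.09 against -0.02 over all genes. These markers came with the label and were known from these data, so they describe the wells and do not test them.

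Bpifa1, which encodes the secreted BPI fold protein SPLUNC1, stands on the plus strand at chr2:154142880-154149219. It ranged from 0 to 220298 CPM with a median of 4010, had a count in 59 of the 74 wells, and exceeded 1% of the total in 31 and 5% in 12. In the other wells low in Sftpc it had a count in 11 of 90 and reached 826.8 CPM at most. In the Sftpc wells, which should lack it, 7.94% of wells had a count. At equal depth, 75.7% of Scgb3a1-high wells, 3.49% of other wells low in Sftpc and 6.82% of Sftpc wells held one. In all, 50 of the 74 wells lay above every other well low in Sftpc. Pooled levels were 27752 CPM against 39.6 CPM, a log2 ratio of 9.45 (8.97 in set 1 and 10.44 in set 2). The level was uneven, since 10 wells gave 67.0% of all Bpifa1 counts in the group.

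Bpifb1, a longer BPI fold protein whose gene follows Bpifa1 after 41.6 kb on chromosome 2, was more even. It ranged from 0 to 18739 CPM with a median of 4716 and had a count in 69 wells. Among the other wells low in Sftpc 7 of 90 held a count, and the well at 0.876% Scgb3a1 gave 72.7% of them. In all, 54 of the 74 wells lay above every other well low in Sftpc. The log2 ratio of pooled CPM was 7.09 (6.18 and 8.42 within sets), or 8.93 with that well counted among the members. Of 13 BPI fold genes listed, Bpifa1 and Bpifb1 were the only ones with enough counts to be tested against the other wells low in Sftpc.

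Reg3g, a secreted C-type lectin that kills Gram-positive bacteria, ranged from 0 to 26744 CPM with a median of 4417 and had a count in 69 of 74 wells. In the other wells low in Sftpc 5 of 90 held a count, the highest at 973.7 CPM, and 60 of the 74 Scgb3a1-high wells lay above that value. Pooled levels were 6538 and 21.8 CPM, a log2 ratio of 8.23 (7.55 and 9.00 within sets). Taking the well at 0.876% as a member raised this ratio to 9.65.

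Muc5b, the gel-forming mucin of the airway lining, had a count in all 74 wells, from 128.8 to 6289 CPM with a median of 1991. It had a count in 12 of the 90 other wells low in Sftpc and in 2 of the 63 Sftpc wells. The groups overlapped, because 1 other well low in Sftpc reached 2782 CPM, and the pooled log2 ratio was 4.74 (4.10 and 5.41 within sets). Tff2, a trefoil peptide packed with mucins, had a count in 69 wells and ranged from 0 to 7509 CPM with a median of 2219. Its highest level in the other wells low in Sftpc was 1252 CPM, and its log2 ratio was 6.33 (5.53 and 7.66 within sets). With the well at 0.876% Scgb3a1 as a member, the ratios of Muc5b and Tff2 were 5.57 and 7.49. Both are goblet markers as well as markers of these wells.

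**Figure D2:**
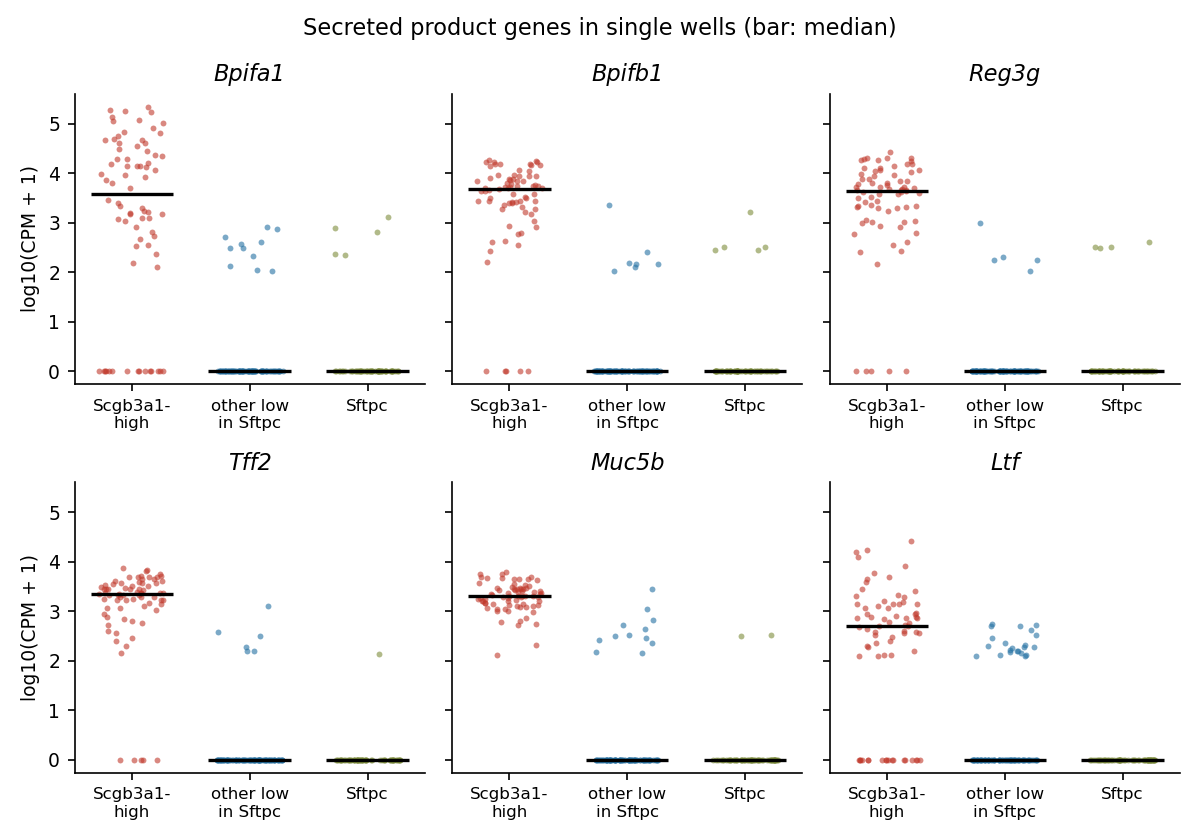
Each point is 1 well, with log10(CPM + 1) on the y axis and the 3 groups on the x axis, and bars mark medians. Medians of all 6 genes lie above 0 only in the Scgb3a1-high wells, where Muc5b has no well at 0 and Bpifa1 spreads from 0 to 220298 CPM.

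Mucus secretion genes, with Muc5b and Tff2 among them, were mostly higher. Of 22 listed, 11 were tested, 8 were at least 2-fold higher and none was lower, with a median log2 ratio of 2.78 against -0.02 over all genes. For this and each later list against the other wells low in Sftpc, the shares over all genes were 8.12% higher and 9.22% lower. Agr2, a disulfide isomerase needed for mucin folding, had 241.6 CPM and a count in 37 wells, against 7.92 CPM and 3 wells of the other wells low in Sftpc. Clca1, a secreted protease of mucus, had a count in 23 of the 74 wells and reached 5537 CPM, and it had no count in any other kept well. Measured against 3 counts over the group, it was at least 39.4-fold higher. Gp2, a zymogen granule glycoprotein, had a count in 25 wells and in none of the others, at least 14.4-fold higher. Fcgbp, a mucus protein that binds the Fc part of IgG, and the mucin-glycosylating enzyme Galnt7 had log2 ratios of 2.78 and 2.56. The membrane mucin Muc4 had a log2 ratio of 1.10, while Muc1 and Muc20 differed by less than 2-fold, at 0.59 and 0.80. Muc5ac, the inducible mucin of goblet cells, had a count in 12 of the 74 wells and none elsewhere, too few to be tested. The goblet factors Spdef and Foxa3 had counts in 10 and 7 wells and 1 other well low in Sftpc each. Tff3 was not detected in any group.

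Secreted antimicrobial genes were split. Of 20 listed, 11 were tested, 6 were higher and 2 lower, with a median log2 ratio of 1.20. Ltf, which encodes the iron-binding lactoferrin, ranged from 0 to 26498 CPM with a median of 491.6 and had a count in 56 wells, against 22 of 90 other wells low in Sftpc and none of the 63 Sftpc wells. Its pooled levels were 1754 and 69.3 CPM, a log2 ratio of 4.66 (4.83 and 4.22 within sets), and 10 wells gave 70.4% of its counts in the Scgb3a1-high wells. Pglyrp1, a peptidoglycan-binding protein, was detected in 62 of 74 wells and 9 of 90, an 18.4-fold ratio with an interval from 9.45 to 40.9. Lypd2, a small surface protein of the Ly6 family, had 2087 CPM against 463.1 CPM, a log2 ratio of 2.17 (2.08 and 2.13 within sets). Wfdc2, a whey acidic protein of airway secretions, was abundant in both groups, at 9607 and 7848 CPM, a ratio of 0.29. Lyz2 was counted among the higher ones at 62.4 against 9.90 CPM, with a count in only 7 of the 74 wells. The 2 lower genes were the acidic chitinase Chia1 and the collectin Sftpd. Chia1 had no count in the 74 wells, which allows up to 3 counts, and it had a count in 16 of 90 other wells low in Sftpc, where 1 well gave 42.5% of its counts. Sftpd had a log2 ratio of -1.39.

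Genes of mucosal immunity followed a similar split, with 6 of 11 tested genes higher and 2 lower of 20 listed, and a median log2 ratio of 1.24 (0.66 in set 1 and 1.78 in set 2). Pigr, the receptor that carries IgA and IgM across the epithelium, had a count in 72 of 74 wells, at 785.3 CPM against 239.5 CPM, a log2 ratio of 1.71 (1.52 and 1.88 within sets). Cfb, a serine protease of the complement system, had a ratio of 3.30. Cxcl5, a neutrophil chemokine, had a count in 24 wells and 4 others, with a ratio of 4.30 that was 1.87 in set 1 and 4.18 in set 2. Cxcl16 and Cd14 had ratios of 1.33 and 1.24, and Cxcl17, a mucosal chemokine, 0.94. Cxcl15, a lung chemokine that alveolar type 2 cells also make, was lower, at 286.4 against 1542 CPM. In the Sftpc wells it stood at 9515 CPM.

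Club cell genes were detected in the Scgb3a1-high wells, some at other levels than in the other wells low in Sftpc. Scgb1a1, the major club secretoglobin, was their most abundant gene and had a count in all 74 wells, from 55495 to 332148 CPM. It averaged 22.8% of pooled counts, or 227810 CPM, against 305254 CPM in the other wells low in Sftpc, a log2 ratio of -0.42. Scgb3a2 differed the other way, at 44427 against 18353 CPM, a ratio of 1.28 (1.22 and 1.10 within sets). Together with Scgb3a1 this left the secretoglobins at 32.3% of pooled counts in the Scgb3a1-high wells and 32.4% in the other wells low in Sftpc. These sums hold Scgb3a1, whose level chose the wells, so their closeness depends in part on the choice and is not a finding. Scgb1c1, a minor family member, was lower, with a count in 9 of 74 wells against 57 of 90 and a log2 ratio of -2.77. Cyp2f2, the club cell cytochrome P450, and Cbr2, a carbonyl reductase, were present in every well of both groups at ratios of -0.57 and -0.96. Haptoglobin (Hp) was lower at -1.32. Of 11 club markers 10 were tested, 3 were higher (Scgb3a2, Chad and Krt15) and 2 lower (Hp and Cckar). Chad, a matrix protein, had a log2 ratio of 2.90, and Cckar, the cholecystokinin receptor, -1.93.

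**Figure D3:**
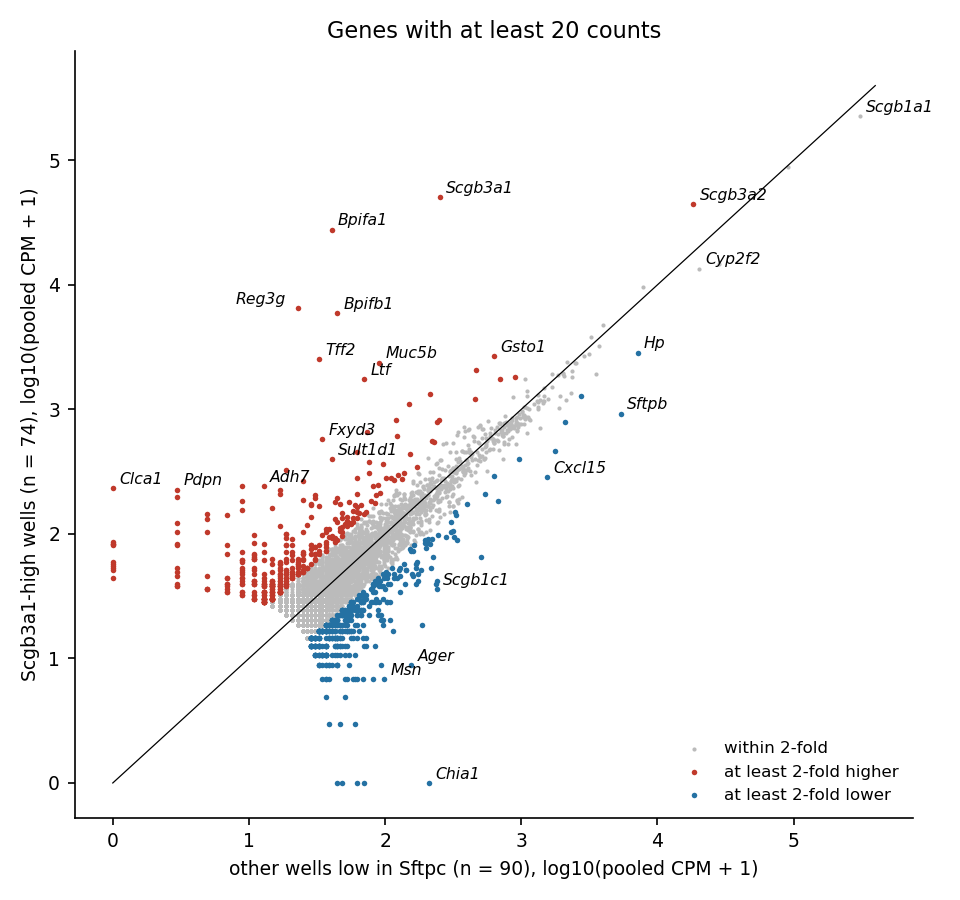
Each point is 1 of the 4534 tested genes, with log10(pooled CPM + 1) in the other wells low in Sftpc on the x axis and in the Scgb3a1-high wells on the y axis, and colours mark genes at least 2-fold higher or lower. Scgb1a1 lies close to the diagonal, while Bpifa1, Reg3g, Bpifb1, Tff2 and Muc5b lie far above it and Chia1 at 0 on the y axis.

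Detoxifying enzymes included genes at least 2-fold higher and genes at least 2-fold lower. Of 13 glutathione transferases tested, Gsto1 was higher and 4 were lower, with a median log2 ratio of -0.42, against 9.22% lower and a median of -0.02 over all genes. Gsto1, an omega-class transferase, had 2687 against 631.4 CPM, a ratio of 2.09 that was 2.10 in set 1 and 2.23 in set 2. Gsta2 had -2.34 and Gstm2 -1.21. Of 18 carbonyl, aldehyde and flavin enzymes 4 stood higher and 2 lower, at a median of -0.04, against 8.12% higher and 9.22% lower over all genes. Sult1d1, a sulfotransferase, had a count in 69 of 74 wells against 10 of 90, a ratio of 3.32. Adh7, an alcohol dehydrogenase that can oxidise retinol, had a count in 52 wells against 4, a ratio of 4.34, or 5.33 with the well at 0.876% Scgb3a1 among the members. Aldh3a1 had 2.33 and Aldh1a1 -0.18. Among 12 cytochrome P450 system genes 3 were higher and 2 lower. The higher ones included Cyp2a5, at 658.6 against 73.2 CPM, and its near-identical neighbour Cyp2a4, whose counts may be shared with it. One other well low in Sftpc gave 59.5% of the Cyp2a5 counts there, and the Cyp2a5 ratio of 3.17 was 2.01 in set 1 and 5.72 in set 2. Prdx6, a peroxiredoxin that also acts on surfactant lipid, was at 1280 against 2741 CPM, a ratio of -1.10, and of 18 antioxidant genes 4 were lower and none higher.

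Several structural and surface genes of the airway lining were higher. Of 6 keratins tested 4 stood higher and none lower, the median being 1.21. Krt8 and Krt19, of simple epithelium, had ratios of 1.02 and 1.40. Krt23 had 2.30, and Krt15, a keratin of basal and some club cells, had a count in 11 of 74 wells with up to 4973 CPM in 1 well. Of 18 S100, annexin and galectin genes 9 stood higher and none lower, at a median of 1.11. S100a6 had a count in 71 wells against 21, a log2 ratio of 2.64, or 3.97 without the other wells that held a count of Foxj1 or at least 3 of Tppp3, both genes of ciliated cells. Anxa8 had 3.84, or 5.12 on the same condition, and Lgals3, galectin-3, had 2.78. Pdpn, a surface glycoprotein of alveolar type 1 and basal cells, had a count in 49 of 74 wells against 1 of 90 and none of the Sftpc wells. Its pooled level was 226.0 against 1.98 CPM, a 114-fold ratio with an interval from 20.1 to 4549. Calml3, an epithelial calmodulin-like protein, had a count in 43 wells against 1, and Ly6a, the stem cell antigen Sca-1, in 51 against 20, with a log2 ratio of 2.04. Cd24a, the gene of the sort marker CD24, was at 0.45. None of 9 listed tight junction genes tested differed by 2-fold in the pooled wells, though 1 was higher in set 1 and 1 higher and 1 lower in set 2. The claudin Cldn22, outside this list, is described below.

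Ion transport genes had 7 of 18 tested genes higher and 2 lower, against 8.12% higher and 9.22% lower over all genes. The lower share was near that of all genes. Fxyd3, a regulator of the sodium pump, had a count in 68 of 74 wells and ranged to 2045 CPM with a median of 562.7. In the other wells low in Sftpc it had a count in 16 of 90 and at most 374.7 CPM, and 54 of the 74 wells lay above that value. The log2 ratio was 4.11 (3.97 and 4.38 within sets). Kcne3, a potassium channel subunit, had a count in 28 wells and none of the other wells low in Sftpc, at least 13.8-fold higher. The chloride channel Ano1, the chloride importer Slc12a2 and the water channel Aqp4 had ratios of 2.18, 1.52 and 1.10. Clic3 and Scnn1b, a subunit of the epithelial sodium channel, were lower at -2.61 and -1.59. Cftr had counts in 2 wells.

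Among 29 epithelial transcription factors tested 7 stood higher and 3 lower, at a median of 0.31. Over all genes 8.12% were higher and 9.22% lower, so the lower share was near that of all genes. Klf4, a factor of barrier epithelium, had a count in 61 wells against 17, a ratio of 2.89 (2.36 and 3.66 within sets). Sox21 had a count in 22 of 74 wells and in none of the others, at least 9.85-fold higher, and Sox9 in 12 wells against 1. Elf3, an ETS factor of secretory epithelium, had 1.47. Sox2, which marks conducting airway, was at 0.67, with 122.8 CPM in the Scgb3a1-high wells and 4.16 CPM in the Sftpc wells. Foxa2 and Sox4 were lower at -1.32 and -1.02, although Foxa2 was at 0.49 in set 1. Pax9, a paired box factor of the foregut, was singled out after its values were seen. It had a count in 23 of the 74 wells and in no other kept well. Of 37 endoplasmic reticulum secretory genes tested only Sec11c, a signal peptidase subunit, was 2-fold higher and none was lower, the median being 0.20. Xbp1, a factor of the unfolded protein response, was at 0.83. Of 20 immediate early genes 1 stood higher and 2 lower, at a median of -0.01. Interferon response genes had 3 higher of 7 and peptide loading and MHC class I genes 4 higher of 8, with no gene lower in either list, against 8.12% higher over all genes. The class I list had no gene at 2-fold among the 4 tested in set 1, in set 2, with at least 50 counts or after thinning, and the interferon list had 2 of 6 in set 1 and 1 of 5 in set 2. Among them Ifitm1 had a ratio of 2.48 and H2-T23, with 3 counts in the other wells low in Sftpc, 2.64 (interval 0.88 to 5.04), and H2-K1 and H2-D1, whose counts can be shared, had 0.39 and 0.07. Of 7 Notch pathway genes tested Rbpj was higher at 1.38 and Notch1 lower at -2.02.

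**Figure D4:**
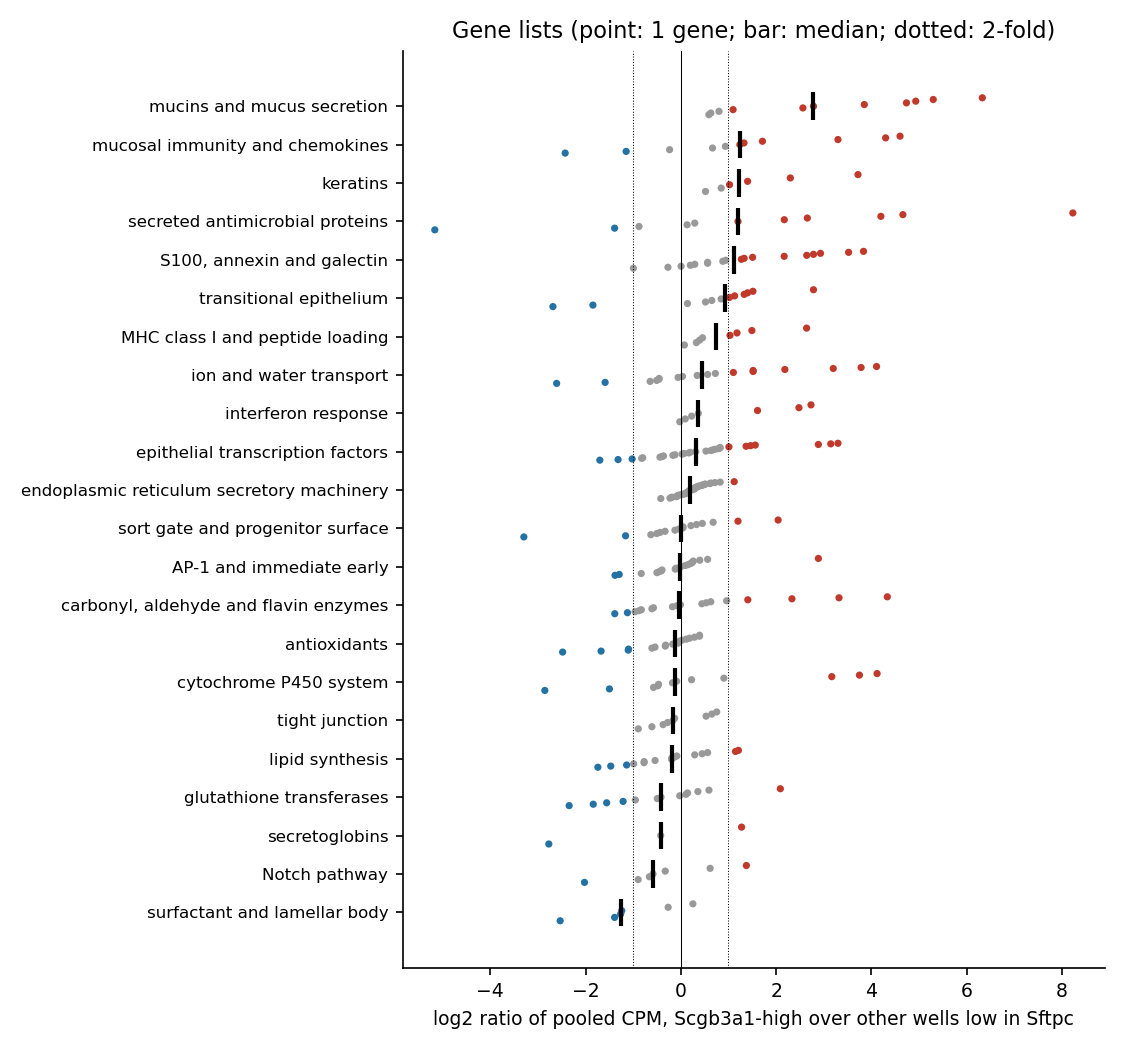
Each row is a gene list with at least 3 tested genes, each point is 1 gene at its log2 ratio of pooled CPM (Scgb3a1-high over other wells low in Sftpc) on the x axis, bars mark medians and dotted lines 2-fold, with sums under 3 counts raised to 3. Mucus secretion genes have the median farthest to the right at 2.78 and surfactant genes the median farthest to the left at -1.25.

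The genes lower in the Scgb3a1-high wells included distal lung genes. Ager, a receptor of alveolar type 1 cells, had 4 counts in 4 wells, against a count in 35 of 90 other wells low in Sftpc and in 93.7% of the Sftpc wells, with a log2 ratio of -4.31 (-2.91 and -3.41 within sets). The alveolar type 1 markers did not move together. Of 8 listed 4 were tested, with 2 lower (Ager and Hopx) and 1 higher (Pdpn, described above). Surfactant protein B (Sftpb) ranged from 0 to 6007 CPM with a median of 339.8, against a pooled 5358 CPM in the other wells low in Sftpc and 14966 CPM in the Sftpc wells. Its log2 ratio over the other wells low in Sftpc was -2.53 (-2.24 and -3.29 within sets). Sftpa1 did not follow, at 4753 against 3988 CPM and a ratio of 0.25. Of 6 surfactant and lamellar body genes tested 4 stood lower and none higher, at a median of -1.25. By the naming rule the 10 lowest genes were Ager, Msn, Prrg3, Fhl1, Igfbp6, Gfra1, Krtap17-1, Dbp, A2ml1 and Serpine2. Msn links actin to the membrane. It had a count in 2 of 74 wells against 33 of 90, a log2 ratio of -4.05 (interval -6.38 to -2.42). Igfbp6, a binding protein for insulin-like growth factors, had no count in the 74 wells and a count in 27 of 90, at least 11.9-fold lower against 3 counts. Gfra1, a receptor of glial cell line-derived factors, had a ratio of -3.52 (interval -5.87 to -1.86). Cd81, a tetraspanin, had a count in 2 wells against 25, a ratio of -3.30 (interval -5.65 to -1.61).

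Against all 153 other kept wells, 7.03% of 5490 tested genes were at least 2-fold higher and 14.6% lower. The highest genes by the naming rule were Scgb3a1, Bpifa1, Reg3g, Bpifb1, Tff2 and Clca1. The lowest were Sftpc, Napsa, Lamp3, Lyz1, Chia1 and Rnase4. Scgb3a1 and Sftpc were part of the choice, so their places are not a finding. Lamp3, a protein of lamellar bodies, had 1 count in the 74 wells and a log2 ratio of -7.91 (interval -13.22 to -5.42). Napsa, which processes surfactant protein B, had none. Rnase4, a secreted ribonuclease, had 2 counts and a ratio of -6.52 (interval -9.57 to -4.65), and Lyz1 had -6.24. Both of the other groups enter this comparison, and all 3 comparisons share the 74 wells. Against the Sftpc wells alone, 13.2% of 3832 tested genes were higher and 19.7% lower. These were 505 and 756 genes, and the balance depended on the scaling: 773 were higher and 472 lower with TMM factors, which moved the median log2 ratio of all genes from -0.20 to 0.19. There the 5 markers had a median log2 ratio of 7.67, and Scgb1a1 had 2.34 and Scgb3a2 4.80. Scgb1a1 still had a count in every Sftpc well, at a pooled 44944 CPM, so its presence alone did not separate the groups. Its level in single Sftpc wells ran from 277.9 to 243412 CPM. The secretoglobins together took a median of 1.15% of a Sftpc well against 4.67% of pooled counts, so pooled values lie above a typical Sftpc well. Of 18 lipid synthesis genes tested 16 were lower than in the Sftpc wells and none higher, and the 4 class II genes tested were all lower. Within sets, 4 of 8 lipid synthesis genes were lower in set 1 and 12 of 13 in set 2. Against the other wells low in Sftpc, 2 of 16 lipid synthesis genes were higher and 3 lower, at a median of -0.19. The 1 class II gene tested there, Cd74, differed by less than 2-fold, at -0.95.

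Many defining markers of other cell types were at or near 0, those of ciliated cells, ionocytes and alveolar type 1 cells only in part. The part of these cell types in the results was not tested. The 8 alveolar type 1 markers gave 203 counts in 62 of the 74 wells, with a median sum of 351.9 CPM. In the other wells low in Sftpc they gave 230 counts in 75 wells, with a median sum of 360.4 CPM. Summed over 9 ciliated markers, the Scgb3a1-high wells ranged from 0 to 8449 CPM with a median of 1116, and the other wells low in Sftpc from 0 to 23904 CPM with a median of 1751. The ciliated list had a median log2 ratio of -1.67, which was 0.64 over 2 tested genes once the 8 other wells low in Sftpc with a Foxj1 count or at least 3 Tppp3 counts were left out. Among the 74 wells 3 met the same condition and were kept. Of the basal markers Krt5, Krt14, Ngfr and Dapl1 had no count and Trp63 had 1. Of the leukocyte markers Ptprc, Cd68, Tyrobp, Fcer1g, Cd3e and Cd79a had no count, and the list summed to at most 2020 CPM in a well, most of it Lyz2. Endothelial and mesenchymal lists held 2 counts each over all 74 wells, the neuroendocrine list 4, the tuft list 2 and the erythroid list 0. Of 4 ionocyte markers the factors Foxi1 and Ascl3 had no count in any group, and the other two, Cftr and Atp6v1c2, gave 41 counts in 30 of the 74 wells, nearly all of Atp6v1c2, a proton pump subunit. In the other wells low in Sftpc they gave 46 counts in 37 wells. The 11 alveolar type 2 markers, with Sftpc among them, ranged in sum from 109.4 to 28041 CPM, with a median of 5050, against 10722 in the other wells low in Sftpc and 236994 in the Sftpc wells. Because Sftpc set the limits of every group, the contrast with the Sftpc wells was fixed in part by the choice.

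The 74 wells differed widely among themselves in Bpifa1 and Ltf. Spread was computed for 14 genes, and rarer genes such as Clca1 were not among them. The coefficient of variation (SD over mean) of CPM across the 74 wells was 1.77 for Bpifa1 and 2.31 for Ltf, against 1.01 for Reg3g, 0.891 for Bpifb1, 0.721 for Tff2, 0.589 for Muc5b, 0.496 for Scgb3a1, 0.360 for Scgb3a2 and 0.286 for Scgb1a1. Low counts add to the spread of the rarer genes. The spread of Scgb3a1 was cut at 1% by the choice and cannot be set beside the others. The well highest in Bpifa1 held 22.0% Bpifa1, 9.72% Scgb1a1 and 2.44% Scgb3a1, and the second highest held 18.5%, 13.6% and 2.03%. Both also had high Ltf, at 26498 and 12199 CPM, while the next well by Bpifa1 had 579.9 CPM. At the other end, 15 wells had no Bpifa1 count.

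Rank correlations (Spearman) of CPM across the 74 wells describe this spread. Bpifa1 and Scgb1a1 had a rho of -0.76, -0.78 in set 1 (38 wells) and -0.77 in set 2 (31 wells). Because CPM values of a well share one total, the same value was taken with Bpifa1 left out of the total, and it was -0.72. Bpifa1 had 0.59 with Bpifb1, 0.58 with Gsto1, 0.49 with Reg3g and 0.49 with Ltf, and Bpifb1 had 0.64 with Reg3g. For Bpifa1 and Reg3g the value was 0.67 in set 1 and 0.19 in set 2. Muc5b and Tff2 had 0.53. Bpifa1 had -0.20 with Muc5b, which was -0.08 in set 1 and -0.44 in set 2, and -0.04 with Tff2. Scgb3a1 had 0.49 with Reg3g, 0.48 with Tff2, 0.46 with Bpifb1 and 0.19 with Bpifa1, and most of these differed between sets. The value was 0.50 in set 1 and 0.44 in set 2 for Reg3g, and 0.17 and 0.70 for Tff2. It was 0.59 and 0.27 for Bpifb1, and 0.45 and -0.12 for Bpifa1. Scgb3a1 chose the wells and was cut at 1%, so its correlations describe only this chosen range. Cyp2f2 and Scgb1a1 had 0.50. All of these points share the depth of their well, and rho with the total was 0.13 for Bpifa1, 0.28 for Scgb3a1, 0.31 for Reg3g and 0.07 for Scgb1a1.

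**Figure D5:**
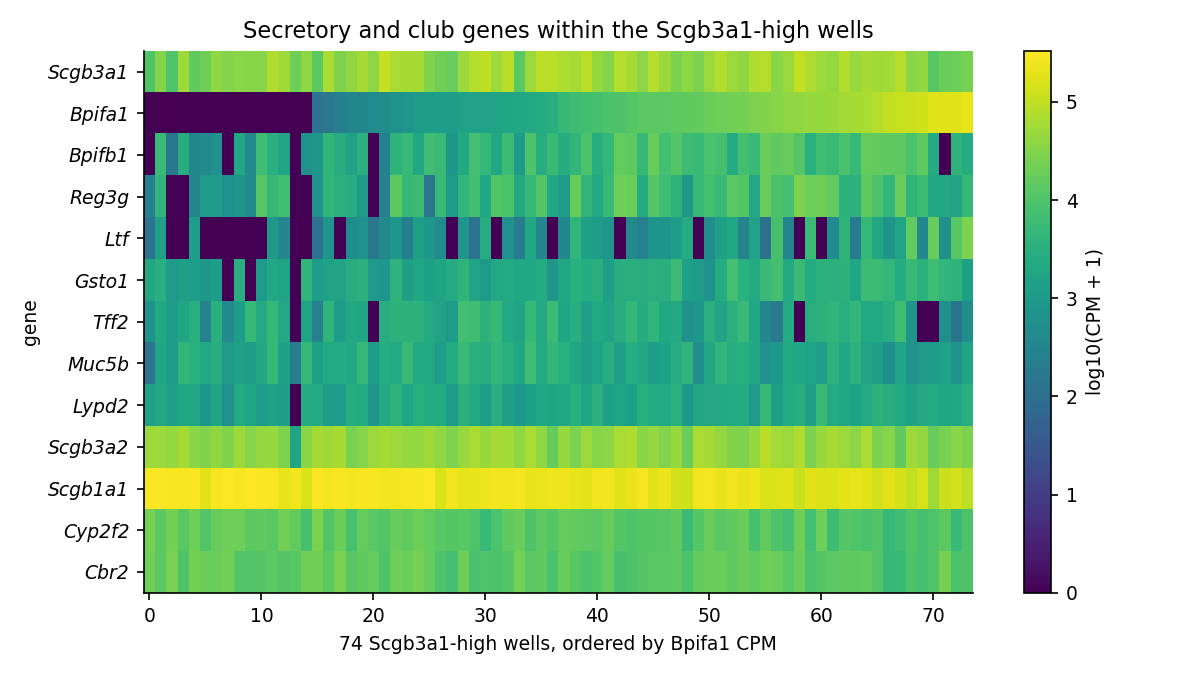
Columns are the 74 Scgb3a1-high wells ordered by Bpifa1 from low to high, rows are genes, and colour is log10(CPM + 1). Bpifa1 is at 0 in the first 15 wells and reaches 220298 CPM toward the right, where Scgb1a1 is mostly lower, while Muc5b has a count in every well.

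A pair of wells carried few of the markers, both in set 3, which gave 5 of the 74 wells. One held 1.97% Scgb3a1 but only Muc5b of the 5 other markers, at 207.1 CPM, with 0.166% Scgb3a2, 25.7% Scgb1a1 and no count of Gsto1, Ltf or Lypd2. The second held 3.75% Scgb3a1 with counts of Bpifa1 and Muc5b alone among the 5, and 5.02% Scgb3a2. Scgb3a2 in the first of these wells lay below that of every other Scgb3a1-high well.

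Some further genes were singled out after their values were seen. Serpinb1a, an inhibitor of neutrophil proteases, had a count in 33 of 74 wells against 1 of 90, and Msln, mesothelin, in 20 against 1. Golm1, a Golgi membrane protein, had a count in 45 wells against 7 and a log2 ratio of 3.53. Cldn22, a claudin, had a count in 18 wells and in none of the other wells low in Sftpc, at least 8.86-fold higher.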

How the data were processed

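Counts per gene symbol and well were made and deposited by the authors without normalization, for 24781 genes, 286 sorted wells and 2 negative controls. Per the labels' protocols, poly(T) primers that carried a molecular barcode made the cDNA, which PCR then amplified. Per the submitters' processing notes, STAR and mm10 were used. Not given in the sources used here are the counting tool, the annotation and any collapsing of barcodes. Where PCR copies were counted separately, the intervals are too narrow. Strand was not stated, so overlapping genes may share counts.

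The controls held 41 and 234 counts, with Scgb3a1 at 1 and 0. Wells above 2340 counts, 10 times the higher control, were kept. Kept totals ran from 2384 to 15088 counts. The members and gene lists were chosen with earlier results of these data known. Pooled CPM is the summed count over the summed total, with exact Poisson intervals, shares of wells have exact Clopper-Pearson intervals, and ratios have exact conditional binomial intervals, all at 95%. A gene counted as higher or lower at 2-fold with at least 20 counts. A group at 0 was set to 3 counts. For ranking, counts of genes and list medians, sums under 3 were also raised to 3, and no ratio was formed when both groups held 3 or fewer, a choice made after values were seen. No test across wells was possible, since the wells are 1 sample. The ratio was tested on simulated data with counting error alone and no spread between wells. That checks the calculation and not how the ratio behaves with variation between wells.

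Genes were named by a rule: the 6 markers, the 12 highest and 10 lowest against the other wells low in Sftpc and the 6 highest and 6 lowest against all others (same side in each set with at least 10 wells of both groups, a count in at least 20% of wells of the higher group), the 2 most abundant and 2 most different genes of each list, and the 15 most abundant genes. Further list genes are examples, and 1 named gene is not reported here. Of 104 named genes 77 had a RefSeq promoter. Positions are from GENCODE M21. Rn45s, ribosomal RNA, took a median of 8.27% of the Scgb3a1-high wells. Tools were Python 3.11.15, numpy 2.4.6, pandas 2.3.3, scipy 1.17.1, matplotlib 3.10.9, R 4.3.3 and edgeR 4.0.16 (TMM factors).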

Additional observations from a re-analysis of the deposited data

Results flagged for a closer look

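Among the 59 wells left out for a low total, 3 passed the limits on Scgb3a1 and Sftpc with more Scgb3a1 counts than either control. They held 26, 29 and 45 counts of Scgb3a1 in totals of 1048 to 2017 counts, against 1 and 0 in the controls. All 3 held a count of at least 3 of the 5 other markers. Pooled, they had 13008 CPM of Bpifa1, 1826 CPM of Reg3g and 1597 CPM of Muc5b.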

How the results depend on the processing

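No paired analysis was possible because the numbers of wells and controls only name them and no result comes from a test. Of the named genes, 66 were at least 2-fold different from the other wells low in Sftpc, and under 19 alternative settings at most 3 of them fell under 2-fold (Elovl5, Sftpc and Tap2 in set 1, Elovl5, Rbpj and Sftpc after thinning, Ifit1 and Prdx4 in set 2, and Krt8 under limits on the total of 1000 counts or 20 times the control and without the well of most counts). Leaving sums of 1 or 2 counts as they are, a setting chosen after seeing the data, kept all 66 at 2-fold. That setting can only widen these ratios, so its outcome was fixed. The changed count minimum and leaving out the first control left these ratios as they were and could not lower them. Many of the genes were named for large ratios on the same side in sets 1 and 2, and Scgb3a1 and Sftpc chose the wells. Prdx4 turned direction in set 2, at 0.52 over all other kept wells and 0.55 over the other wells low in Sftpc. The number of Scgb3a1-high wells was 38 in set 1, 31 in set 2 and 5 in set 3. Without the first control the limit stayed, and without the second it fell to 410 counts, which gave 74 to 77 Scgb3a1-high wells and 368 to 376 genes higher and 418 to 446 lower than in the other wells low in Sftpc.

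The numbers of genes called moved mostly where fewer or more genes were tested. Higher and lower genes against the other wells low in Sftpc (368 and 418) were 797 and 1180 with no count minimum, 138 and 115 with at least 50 counts, 233 and 250 after thinning, and 237 and 152 in set 1, with 178 lower in set 2. Against all other kept wells (386 and 799) they were 845 and 1382, 167 and 296, 243 higher after thinning, 220 and 217 in set 1, 339 lower in set 2, and 408 lower with totals above 20 times the control. Against the Sftpc wells (505 and 756) they were 2052 lower with no count minimum, 222 and 255 with 50 counts, 300 and 410 after thinning, 117 and 180 in set 1, 269 and 290 in set 2, and 216 and 381 with totals above 20 times the control. Scaling turned the balance of that comparison: 773 and 472 with TMM factors, and 860 and 422 with totals that leave out Rn45s and the secretoglobins, as the median of all genes shifted from -0.20 to 0.19 and 0.31. Taking Scgb3a1 at 2% in place of 1% lowered the median of the 5 markers from 7.09 to 4.30, since members between these limits then counted among the others, and 0.5% gave 8.93. Depth limits genes of a few counts, where a count of 0 allows up to 3.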
